A study of Mus musculus with 2 samples.

Results

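Sgk1 encodes serum- and glucocorticoid-regulated kinase 1, and its transcript (ENSMUSG00000019970) was followed across the oligodendrocyte lineage, other glia and neurons of the mouse habenula. It is 1 of the 28692 genes in the deposited matrices. It was selected on its UMI counts in these same libraries, where its level in oligodendrocytes of shocked mice had been seen to be high, so the differences between libraries and between cell classes described here are a description and carry no test. The habenula, a small paired structure of the epithalamus, was dissected from adult male C57BL/6 mice of 50 to 55 days, and single cells were profiled by droplet RNA sequencing in 2 libraries. Each library pooled tissue of 4 mice, so each group is 1 sample. All mice were handled for 5 min a day over 7 days. Control mice came straight from the home cage. Mice of the foot shock group had also been placed in the shock chamber for 10 min a day on 7 days, and on the test day received 30 foot shocks of 0.3 mA and 1 s, with a mean interval of 116 s, within 60 min. Tissue was taken at the end of the session. In both groups perfusion and dissociation used an inhibitor mix of TTX, APV and DNQX, which block firing and glutamate receptors, with actinomycin and anysomycin, which block transcription and translation; dissociation used pronase and a dead cell removal kit. Chamber exposure, shock, pool of mice and library cannot be told apart in this design.

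SGK1 is a serine/threonine kinase of the same family as AKT. Its transcript is induced within a short time by glucocorticoids acting on their nuclear receptor, and both transcript and protein turn over quickly. The enzyme needs phosphorylation by mTOR complex and PDPK1 downstream of phosphatidylinositol 3-kinase, and it acts on ion transport through NEDD4L, on transcription through FOXO factors and on NDRG1. In brain white matter, oligodendrocytes are known to raise Sgk1 under stress and glucocorticoid exposure.

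The gene lies on the plus strand at chr10:21882184-21999903 (mm10, GENCODE vM21). The annotation holds 13 transcripts, and 5 of them are basic coding models with 5 different starts whose 3′ ends lie within 12 bases, at 21999891 to 21999903. Counts of 3′ reads therefore do not separate the starts. RefSeq promoter windows (GRCm38.p6), each 250 bases before to 50 bases after an annotated start, were matched by symbol and gave 6 windows for Sgk1. The palindromic glucocorticoid receptor motif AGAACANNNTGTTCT, searched on both strands, occurred in 1 of them, in the window of the Sgk1-202 start. The first sequence below is that window, chr10:21993640-21993939 (plus strand), with the motif in capitals, and the second is the window of the start of Sgk1-201, chr10:21994416-21994715 (plus strand), which holds no match.
Sgk1-202 window: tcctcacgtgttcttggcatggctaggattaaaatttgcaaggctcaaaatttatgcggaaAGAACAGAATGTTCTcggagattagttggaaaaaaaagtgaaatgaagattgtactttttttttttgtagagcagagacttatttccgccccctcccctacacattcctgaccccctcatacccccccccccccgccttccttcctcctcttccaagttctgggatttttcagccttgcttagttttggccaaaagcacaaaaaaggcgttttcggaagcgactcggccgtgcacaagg
Sgk1-201 window: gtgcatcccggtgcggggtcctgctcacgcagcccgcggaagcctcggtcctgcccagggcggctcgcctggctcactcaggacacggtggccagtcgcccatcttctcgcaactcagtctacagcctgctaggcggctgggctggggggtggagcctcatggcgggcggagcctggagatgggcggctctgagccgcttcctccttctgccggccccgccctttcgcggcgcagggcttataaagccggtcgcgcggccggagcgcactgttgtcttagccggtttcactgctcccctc
The match covers chr10:21993701-21993715, 189 bases before the start of Sgk1-202 and 965 bases before that of Sgk1-201. It falls in an intron of 5 annotated transcripts and in an exon of 0. Only 3 of 32851 promoter windows of all genes held the full motif (0.00913%), those of Sgk1, Acnat2 and Gm35041. The half-site AGAACA, which the full motif contains, was far more common, in 6233 windows (19.0%). Of 15 glucocorticoid-induced genes with a window, 0 held the full motif in any window and 2 held the half-site. A match describes the letters in these windows only.

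The control library held 23095501 UMIs (unique molecular identifiers, counts of captured transcripts) and the foot shock library 22189951. After filtering, 4880 and 4771 cells remained, with medians of 2416.5 and 2698 UMIs and median mitochondrial shares of 4.90% and 5.06%. Of the kept barcodes, 32 occurred in both libraries. The foot shock library also held cells that go against the male label or the tissue: 503 keratin-expressing cells found in that library alone had Y-linked genes at 2.43 CPM (counts per 1000000 UMIs of the class), and 45 fibroblast-like cells had Xist at 1158 CPM with no Y-linked count. In oligodendrocyte-like cells Xist was at 0.423 CPM in control and had no count in foot shock, and Y-linked genes stood at 267 and 193 CPM. Ratios were taken only for classes with 50 cells or more on each side, which left out endothelial-like cells and 5 other classes.

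Cell classes were checked against their markers. All 8 oligodendrocyte markers were found in at least 10% of oligodendrocyte-like cells of each library, with summed levels of 49518 and 50618 CPM (control and foot shock). Astrocyte markers summed to 150.0 and 109 CPM there, microglia markers to 12.7 and 15.4 CPM, and the 6 neuron markers to 396 and 787 CPM, so neuron transcripts were more abundant in the foot shock cells. Committed precursor-like cells, led by genes such as Gpr17, Bmp4 and Enpp6, held all 7 markers of that stage in both libraries. They also had oligodendrocyte markers at 32786 and 27168 CPM, and neuron markers at 560.4 and 3472 CPM. Oligodendrocyte precursor-like cells, led by genes such as Pdgfra, C1ql1 and Cspg4, held all 7 of theirs, and had neuron markers at 4796 and 9444 CPM (control and foot shock).

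In control, Sgk1 was highest in committed precursor-like cells and low in mature oligodendrocyte-like cells. The level, in CPM of all UMIs of the class, was 69.9 in oligodendrocyte precursor-like cells (95% Poisson interval 44.3 to 105, n = 244 cells), 385 in committed precursor-like cells (317 to 462, n = 93) and 71.8 in oligodendrocyte-like cells (61.4 to 83.5, n = 1080). Committed precursors were thus 5.50 times above the precursors before them (3.49 to 9.03), and mature cells stood at 0.187 of the committed precursors (0.146 to 0.239). Precursor-like and mature cells differed by less than counting error (ratio 1.03, 0.662 to 1.66). All intervals cover counting error only and say nothing of the spread between mice.

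In foot shock the order along the lineage was different. Precursor-like cells stood at 84.5 CPM (48.3 to 137, n = 107) and committed precursor-like cells at 458 CPM (367 to 565, n = 67), while oligodendrocyte-like cells stood at 1312 CPM (1258 to 1367, n = 830). Mature cells were 2.86 times above committed precursors (2.31 to 3.59) and 15.5 times above precursor-like cells (9.54 to 27.2). The step from precursor-like to committed cells was 5.42 (3.16 to 9.91), close to its control size.

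Foot shock over control, Sgk1 was 18.3 times higher in oligodendrocyte-like cells (15.6 to 21.5; 170 control UMIs, 2212 foot shock UMIs). The ratio was 1.19 in committed precursor-like cells (0.890 to 1.59) and 1.21 in precursor-like cells (0.597 to 2.39), and both intervals hold 1. The ratio in mature cells was 15.3 times that in committed precursors (11.0 to 21.4) and 15.1 times that in precursor-like cells (7.46 to 31.1). Against MHb-like neurons the ratio of ratios was 2.56 (0.778 to 6.61), and its interval held 1. In oligodendrocyte-like cells 2.55% of 9128 genes with at least 20 UMIs were at a ratio of 1.5 or more with an interval above 1, the rule used here to call a gene higher. Sgk1 had the highest ratio of the 4667 genes with at least 100 UMIs and ranked the second of all 9128, below E230001N04Rik, a gene without a control UMI. Without the barcodes kept in both libraries, 8 control and 5 foot shock oligodendrocyte-like cells, the ratio was 18.3 (15.6 to 21.5).

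**Figure D1:**
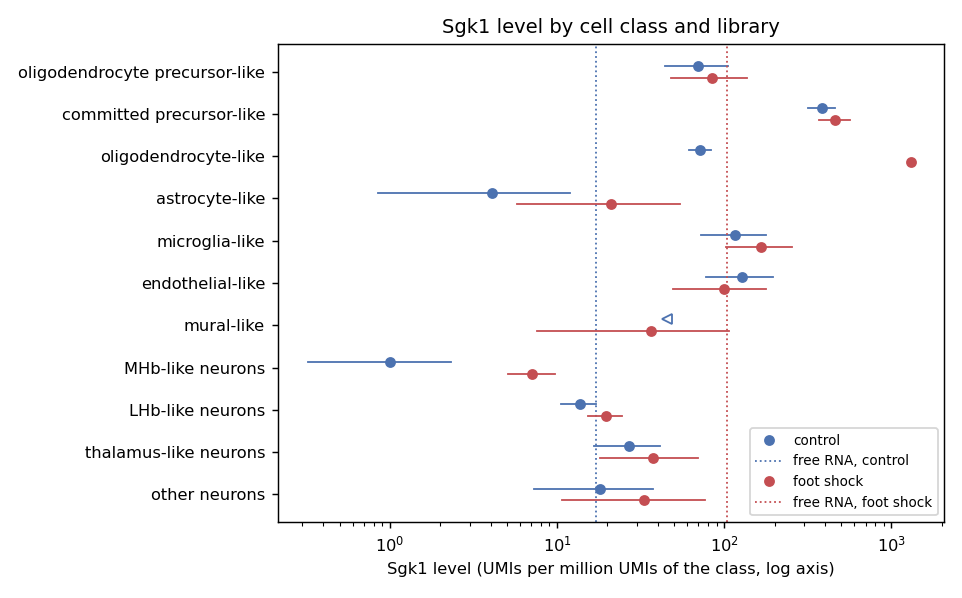
Sgk1 level by class on a log axis, in CPM; points are class sums, bars 95% Poisson intervals, the open triangle the upper bound of a class with no UMI, and dotted lines the level in free RNA. The oligodendrocyte-like point moves from 71.8 CPM in control to 1312 CPM in foot shock, while the committed precursor-like intervals overlap.

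Most mature cells of the shocked mice carried the transcript. Of 1080 control oligodendrocyte-like cells, 935 held no Sgk1 UMI (86.6%), 126 held 1 and none held more than 4. Of 830 foot shock cells, 114 held none (13.7%), 166 held 1, 141 held 5 or more (17.0%) and 9 held 10 or more, up to 13. The mean was 0.157 ± 0.438 UMIs per cell in control and 2.67 ± 2.15 in foot shock (SD over cells of 1 library), and the median was 0 and 2. The ranges of the libraries overlap at 0 to 4 UMIs. The share of cells with an Sgk1 UMI was 13.4% (Clopper-Pearson 11.4 to 15.6) for control and 86.3% (83.7 to 88.5) for foot shock, at median depths of 2067 and 1845.5 UMIs. With every cell thinned to 1000 UMIs the shares were 7.03% (5.57 to 8.72) and 69.5% (66.2 to 72.6).

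Counts in oligodendrocyte-like cells were somewhat wider than depth alone would give. The variance over the mean was 1.22 in control, against 1.02 for Poisson counts at the same depths, and 1.74 in foot shock against 1.42. Cells without a UMI were 13.7% in foot shock, against 9.45% under the same Poisson reference, and the tenth of cells with the most Sgk1 held 27.03% of its UMIs. Across 4 groups of cells of equal size, from the shallowest to the deepest, the foot shock level was 1537, 1539, 1372 and 1041 CPM and the control level 91.4, 98.0, 66.5 and 49.5 CPM. The deepest group was lowest in each library, and the libraries did not overlap in any group.

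**Figure D2:**
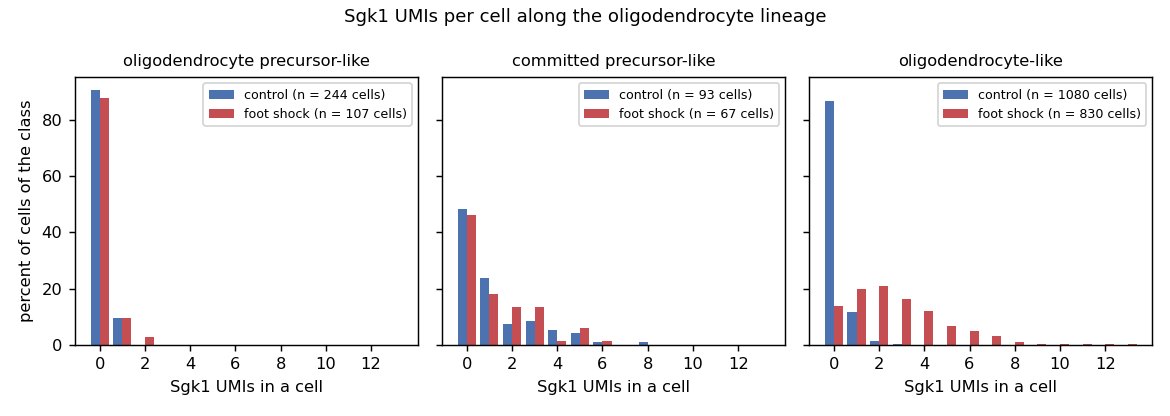
Percent of cells of each class (vertical axis) holding a given number of Sgk1 UMIs (horizontal axis), control beside foot shock, without thinning. In oligodendrocyte-like cells the bar at 0 falls from 86.6% to 13.7% and foot shock cells reach 13 UMIs, while the committed precursor-like distributions overlap throughout.

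Committed precursor-like cells ranged from no Sgk1 UMI to 8. Of 93 control cells 45 held no UMI (48.4%), although Poisson counts at their depths would leave 35.6% empty, and the highest cell held 8. Of 67 foot shock cells 31 held none (46.3%, against 35.5%), and the highest held 6. The variance over the mean was 2.33 and 1.961, against 1.43 and 1.73 for Poisson counts. Thinned to 1000 UMIs, the shares with a UMI were 30.2% (21.1 to 40.6) and 34.8% (23.6 to 47.4). The middle 2 of the 4 depth groups were highest, at 568 and 741 CPM in control and 644 and 765 CPM in foot shock, and the shallowest and deepest were at 155 and 164 CPM and at 195 and 303 CPM.

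Within these cells Sgk1 went with markers of the stage and against those of mature cells. The split that follows was chosen after the correlations were seen. Control cells with a UMI of Enpp6, a choline phosphodiesterase of newly forming oligodendrocytes, had Sgk1 at 529 CPM (428 to 647, n = 55) and those without at 163 CPM (98.0 to 254, n = 38), a ratio of 3.25 (1.97 to 5.63). The same split in foot shock gave 543 and 325 CPM, a ratio of 1.67 (1.03 to 2.79). Cells with a UMI of Mobp, a protein of compact myelin, were lower than those without, with 176 against 551 CPM among control cells (0.319, 0.193 to 0.508) and 247 against 602 CPM among foot shock cells (0.411, 0.233 to 0.692). Splitting by Mag, a myelin adhesion protein, gave ratios of 0.960 (0.641 to 1.46) and 1.01 (0.628 to 1.66). Cells with a marker UMI were deeper than cells without in each of these splits (control medians of 2980 against 1859 UMIs for Enpp6 and 4147 against 2556.5 for Mobp), and the part of depth was not tested. Over the 93 control cells of 1 library the correlation with Sgk1 was 0.47 for Enpp6, 0.29 for Bcas1, -0.44 for Mobp and -0.39 for Cldn11, and over the 67 foot shock cells 0.12, 0.20, -0.35 and -0.22. Values of all genes ranged from -0.23 to 0.22 between the 5th and 95th percentiles in control.

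Mature cells formed 3 clusters, built without Sgk1 and the gene lists. The cluster led by Anln, Hapln2 and Apod had Sgk1 at 85.1 CPM in 522 control cells and 1242 CPM in 421 foot shock cells, 14.6 times higher (11.9 to 18.1). The cluster led by Ptgds, Opalin and Mal went from 54.6 CPM (n = 419) to 1446 CPM (n = 336), 26.5 times higher (20.0 to 35.7). The cluster led by Ttyh2 went from 75.3 CPM (n = 139) to 1010 CPM (n = 73), 13.4 times higher (8.09 to 23.5). The Anln cluster was above the Ptgds cluster among control cells (1.56, 1.105 to 2.22) and below it among foot shock cells (0.859, 0.787 to 0.936), so that the ratio of the ratios, Ptgds cluster over Anln cluster, was 1.82 (1.27 to 2.62). Every mature cluster was higher in foot shock, and no upper bound in control was above 119 CPM.

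Among other glia and vascular cells Sgk1 was measured in few UMIs. Microglia-like cells stood at 117 CPM in control (21 UMIs, n = 115) and 167 CPM in foot shock (21 UMIs, n = 70), a ratio of 1.43 (0.742 to 2.75). Astrocyte-like cells held 3 UMIs in 576 control cells (4.11 CPM) and 4 in 143 foot shock cells (21.2 CPM), and the ratio of 5.15 had an interval of 0.871 to 35.1. Endothelial-like cells stood at 128 CPM (n = 64) and 99.5 CPM (n = 46). Mural-like cells held no UMI in 54 control cells, where a count of 0 allows up to 37.0 CPM by the limit of 3 counts, and 3 UMIs in 61 foot shock cells (36.6 CPM).

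Neuron classes had lower point levels than the lineage in both libraries, although the intervals of thalamus-like and precursor-like cells overlapped in foot shock. MHb-like neurons of the medial habenula held 5 UMIs in 1207 control cells (0.997 CPM, 0.324 to 2.33) and 40 in 1623 foot shock cells (7.11 CPM, 5.08 to 9.68), a ratio of 7.13 (2.81 to 23.2). That ratio was 11.4 in cells of at least 2000 UMIs and 5.39 after subtracting a free RNA share estimated from Mbp and Mobp. It ranked 4 from the highest among 11761 genes with at least 20 UMIs in these neurons. LHb-like neurons, named for markers of the lateral habenula, stood at 13.6 CPM (10.6 to 17.2, n = 1172) and 19.6 CPM (15.4 to 24.6, n = 1042), a ratio of 1.44 (1.02 to 2.02). That interval reached below 1 with a minimum depth of 500 UMIs (0.966) or 2000 UMIs (0.955), a mitochondrial limit of 10% (0.884) and doublets kept (0.930). In 2 of the 4 LHb-like clusters, with 809 of the 1172 control cells, only 2 of the LHb markers reached the share of the highest cluster that the other classes had to meet. Those clusters were at 12.9 and 24.1 CPM (1.87, 1.21 to 2.91), and the other 2, split after seeing the data, at 14.9 and 14.5 CPM (0.976, 0.552 to 1.72). Thalamus-like neurons stood at 26.8 CPM (n = 134) and 37.7 CPM (n = 58), a ratio of 1.41 (0.591 to 3.12). LHb-like exceeded MHb-like neurons 13.7 times among control cells (5.58 to 43.4), against 2.76 times among foot shock cells (1.85 to 4.15). In foot shock 1 LHb-like cell held 6 UMIs, and every other neuron class stayed at 2 or fewer per cell. Among LHb-like clusters, the one led by Rasgrf2, Rph3a and Hpca was at 13.1 and 24.2 CPM (ratio 1.85, 1.15 to 2.98) and the one led by Tmem255a, Peg10 and Chrm2 at 13.96 and 13.3 CPM (0.953, 0.502 to 1.80). The difference between these clusters was not tested.

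**Figure D3:**
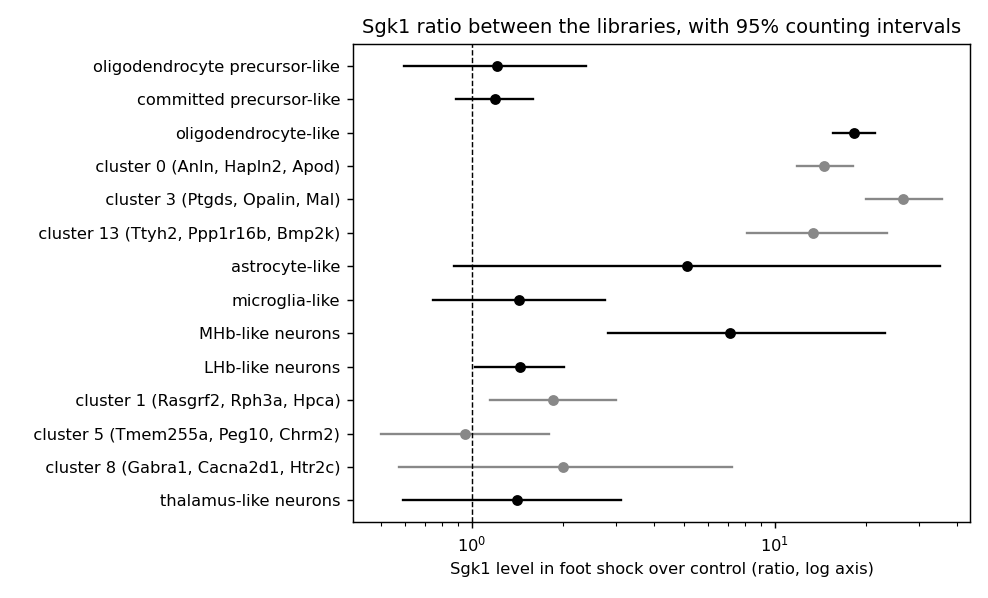
Sgk1 in foot shock over control on a log axis, for classes of 50 cells or more per library that held a UMI on each side (black) and for single clusters (grey); bars are 95% intervals for counting error. The oligodendrocyte-like clusters lie at 13.4 to 26.5, while committed precursor-like cells lie at 1.19 with an interval that holds 1.

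Free RNA, measured in barcodes of 10 to 100 UMIs, held Sgk1 at 17.2 CPM in control (62 UMIs) and 104 CPM in foot shock (402 UMIs), 6.06 times more (4.63 to 8.05). The foot shock level of precursor-like cells, 84.5 CPM, lay below that of free RNA, as did those of neurons and astrocyte-like cells. In oligodendrocyte-like cells, subtracting a free RNA share estimated from the neuronal transcripts Snap25, Syt1 and Meg3 left 69.4 and 1285 CPM (ratio 18.5). The same estimate exceeded 100% in precursor-like cells of both libraries and in committed precursor-like cells of foot shock (119%), and is void there. The share of cells with a UMI, thinned, was 0.0933% and 0.674% in MHb-like and 1.199% and 1.90% in LHb-like neurons (median depths before thinning 4221 and 3471, and 4324.5 and 3579 UMIs). It was 0.259% and 1.45% in astrocyte-like cells (1181.5 and 1182 UMIs) and 0.960% in keratin-expressing cells (2300.0 UMIs). MHb-like shares were below those of astrocyte-like cells in each library, and LHb-like shares were above them, with overlapping intervals in each library. Subtracting a free RNA share estimated from the myelin transcripts Mbp and Mobp, a choice made after seeing the data, left 0.591 and 3.18 CPM in MHb-like neurons (ratio 5.39), 13.1 and 14.9 CPM in LHb-like neurons (ratio 1.14) and 115 and 157 CPM in microglia-like cells (ratio 1.36).

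Across all classes of at least 50 cells, the control order was led by committed precursor-like cells, which exceeded the next class, endothelial-like cells, 3.02 times (1.86 to 5.12). Endothelial-like, microglia-like, oligodendrocyte-like and precursor-like cells then followed, with no neighbours whose ratio left out 1. Precursor-like cells exceeded thalamus-like neurons 2.61 times (1.38 to 4.95). In foot shock oligodendrocyte-like cells led, then committed precursor-like cells at 2.75 times microglia-like cells (1.69 to 4.67). Oligodendrocyte-like cells held 37.3% of the Sgk1 UMIs of kept control cells (32.8 to 41.9) and 85.2% of those of foot shock cells (83.7 to 86.5), at 22.1% and 17.4% of cells. Committed precursor-like cells held 25.0% and 3.35%, and LHb-like neurons 15.4% and 2.89%.

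For the other kinases of the Sgk family the interval of the ratio held 1 in oligodendrocyte-like cells. Sgk2 stood at 17.7 and 18.4 CPM (ratio 1.04, 0.630 to 1.69) and Sgk3 at 49.4 and 37.9 CPM (0.768, 0.557 to 1.05). Of 38 family and pathway genes, 34 had at least 20 UMIs, of which 2 were higher and 5 lower, with a median log2 ratio of -0.19 against -0.10 over all genes. Higher genes made up 2.55% of all genes tested, and lower genes, at 1/1.5 or less with an interval below 1, made up 6.79%. With a ratio of 2 the members called were 1 higher and 1 lower (1.18% and 2.63% of genes), and among genes with at least 100 UMIs 1 higher and 4 lower (2.04% and 7.39%). Of the receptor and steroid-handling genes, 5 of 8 were measured. Nr3c1, the glucocorticoid receptor, was at 161 and 111 CPM (0.691, 0.577 to 0.825), and Nr3c2, the mineralocorticoid receptor, held 12 and 3 UMIs. Fkbp5, a receptor co-chaperone, was at 22.0 and 54.6 CPM (2.48, 1.75 to 3.56) and was the 1 member of that list called higher. The lower Nr3c1 level was not limited to oligodendrocyte-like cells. Its ratio was 0.532 (0.316 to 0.853) in astrocyte-like cells and 0.654 (0.506 to 0.840) in LHb-like neurons. In MHb-like neurons it was 1.10 (0.790 to 1.54).

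Of 12 kinases and regulators upstream of SGK1, 11 were measured and 2 were called lower (6.79% of all genes). Pdpk1, which phosphorylates the activation loop of SGK1, was at 43.9 and 25.5 CPM (0.580, 0.397 to 0.835). Pik3cb, a catalytic subunit of phosphatidylinositol 3-kinase, held 25 and 7 UMIs (0.393). Mtor and Rictor, core proteins of the complex that phosphorylates SGK1, had ratios of 1.40 (0.882 to 2.23) and 0.733 (0.473 to 1.12). The related kinases Akt1 and Akt2 had ratios of 0.962 (0.615 to 1.49) and 1.06 (0.643 to 1.73). Among 11 substrates and effectors 1 was called higher and 3 lower (2.55% and 6.79% of all genes). Nedd4l, the ubiquitin ligase that SGK1 inhibits, was called higher at 11.4 and 20.8 CPM (1.82, 1.07 to 3.12). Foxo3 (0.548), Gsk3b (0.634) and Ndrg2 (0.601) were called lower, and Ndrg1, which encodes a substrate of the kinase, was at 816 and 705 CPM (0.864, 0.803 to 0.929). These are transcript levels, and the activity of the kinase was not measured. Free RNA held Nedd4l at 56.0 and 46.1 CPM, above its level in these cells, and Gsk3b at 535 and 256 CPM. Stub1 and Syvn1, ligases that mark SGK1 for degradation, were at 0.761 and 0.664, outside the calls.

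Of 16 glucocorticoid-induced genes all 16 were measured in oligodendrocyte-like cells, and 9 were higher and 1 lower (2.55% and 6.79% of all genes). Their median log2 ratio was 0.90, against -0.10 over all genes. Mt2, among the 9, was at 61.7 and 196 CPM, below free RNA (822 and 1357 CPM), whose part in its counts was not tested. Nfkbia, the inhibitor of NF-kappaB, stood at 26.6 and 218 CPM (8.17, 6.24 to 10.9), Cdkn1a, a cell cycle inhibitor, at 10.1 and 55.1 CPM (5.44, 3.44 to 8.91), Per1, a clock gene, at 6.34 and 30.8 CPM (4.86, 2.70 to 9.30), and Ddit4, an mTOR inhibitor, at 76.9 and 324 CPM (4.21, 3.55 to 5.01). Plin4, a lipid droplet protein, was lower at 63.0 and 31.4 CPM (0.499, 0.358 to 0.687), and Tsc22d3, a common marker of glucocorticoid action, was at 149 and 166 CPM (1.12, 0.951 to 1.31). Of 18 immediate early genes 9 were measured. None was called higher and 2 were lower (against the same 2.55% and 6.79%), Arc (0.575, 0.390 to 0.835) and Btg2 (0.248, 17 and 3 UMIs). Fos, the usual activity marker, held 15 and 9 UMIs there (0.842, 0.325 to 2.05). Tsc22d3 and Fos lay below free RNA in each library (220 and 259 CPM for Tsc22d3, 15.5 and 72.8 CPM for Fos). The part of free RNA in their counts was not tested.

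**Figure D4:**
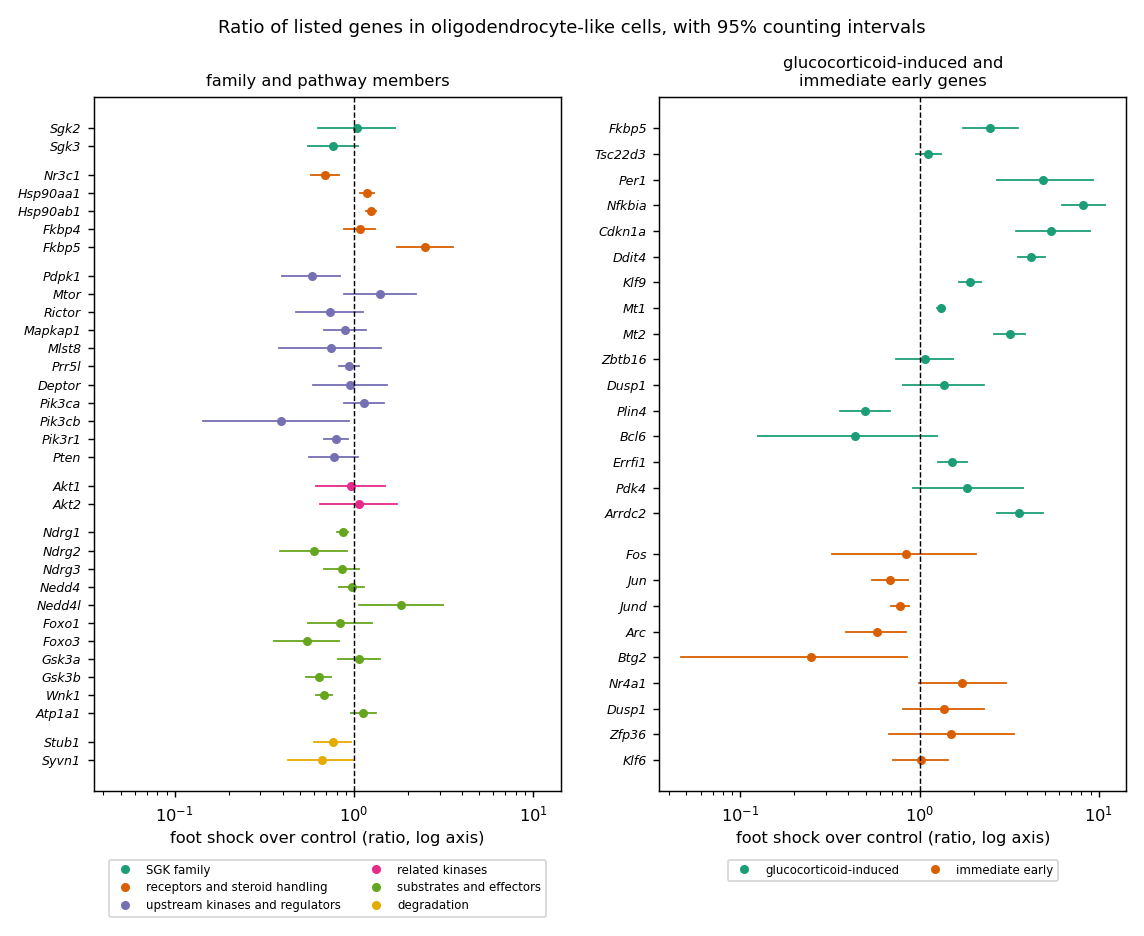
Foot shock over control in oligodendrocyte-like cells on a log axis, for list members with at least 20 UMIs, except 1 that is left out; points are ratios of class levels and bars 95% intervals for counting error. Most pathway members lie near or below 1, while 9 of 16 glucocorticoid-induced genes were called higher, up to Nfkbia at 8.17.

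The same glucocorticoid-induced list was read in the other classes beside Sgk1. In precursor-like cells 3 of the 5 members measured were called higher (6.49% of genes there), Mt1 and Mt2 among them. In committed precursor-like cells 2 of 4 were called higher (4.52% of genes), Ddit4 at 1.86 and Mt2 at 2.68. In both classes the Sgk1 interval held 1. Free RNA held Mt2 at 822 and 1357 CPM. That is above the 109 and 454 CPM of precursor-like cells and the 108 and 289.7 CPM of committed precursor-like cells. Mt1 in precursor-like cells, at 496 and 1416 CPM, also lay below free RNA. The part of free RNA in these counts was not tested. In microglia-like cells all 5 measured were called higher (9.86% of genes), with Fkbp5 at 6.78 (2.25 to 27.4), and in astrocyte-like cells 6 of 9 (3.16% of genes), with Tsc22d3 at 1.74 (1.45 to 2.09). Neuron markers summed to 1277 and 6019 CPM in microglia-like cells and to 702 and 2671 CPM in astrocyte-like cells, and astrocyte markers to 128 and 484 CPM in microglia-like cells. Mt1 and Mt2, among the members called in both classes, were at 378 and 968 CPM and at 16.7 and 373 CPM in microglia-like cells, below free RNA (3127 and 4194 CPM for Mt1). The part of other cells' RNA in these counts was not tested. In MHb-like neurons 2 of 11 were called higher (1.39% of genes), Ddit4 at 6.98 and 17.8 CPM and Mt2 at 53.1 and 107 CPM. Both lay below free RNA in each library (28.8 and 51.3 CPM for Ddit4), and its part in these counts was not tested. In LHb-like neurons 0 of 13 were called higher (1.78% of genes). Of the immediate early genes, 4 of 12 measured were called higher in LHb-like neurons (Fos, Egr1, Jun and Junb) and 4 of 13 in MHb-like neurons (Egr1, Fos, Jun and Arc). Egr1 had ratios of 2.51 (1.91 to 3.31) and 3.17 (2.05 to 5.05). It was at 16.2 and 40.5 CPM in LHb-like neurons, above free RNA (7.76 and 23.1 CPM), and at 5.39 and 17.1 CPM in MHb-like neurons, below it. Fos was called in LHb-like neurons, at 9.34 and 32.7 CPM (3.50, 2.49 to 4.98), and in MHb-like neurons, at 12.6 and 24.7 CPM (1.97, 1.45 to 2.69). Free RNA held Fos at 15.5 and 72.8 CPM. In thalamus-like neurons Per1 (2.42) and Mt2 (1.61) were the glucocorticoid-induced genes called. Fos was at 20.4 and 189 CPM there (9.23, 5.17 to 17.4). In mural-like cells 1 of 5 measured glucocorticoid-induced genes was called higher and 2 lower. Their immediate early genes had a median log2 ratio of -1.45, against -0.11 over all genes, with Fos at 1887 and 585 CPM. No share of all genes called is given for either class.

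Beside Sgk1, Nfkbia, Cdkn1a and Ddit4, the 10 highest ratios among genes with at least 100 UMIs in oligodendrocyte-like cells belonged to Pcdh11x, a protocadherin, at 4.66 (3.83 to 5.69), Arl4d, a small GTPase, at 4.56, Tma16 at 3.86, Polr3e, a subunit of RNA polymerase III, at 3.68, Arrdc2, an arrestin-domain protein of the glucocorticoid-induced list, at 3.61, and Plekhf1 at 3.55. The step from Sgk1 to the next gene, 18.3 against 8.17, was the widest in this range, and their intervals did not overlap. The lowest were Bhlhe41, a clock repressor, at 0.302 (0.249 to 0.364), Gm26699 at 0.321, Prune2 at 0.366, Spry2, an inhibitor of growth factor signalling, at 0.374, and Nfe2l3 at 0.384.

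Among oligodendrocyte-like cells of 1 library, correlations with Sgk1 were weak. They were taken over depth-adjusted residuals, share library and depth, and carry no test. In control (1080 cells, 2761 genes found in at least 10% of cells) the highest was Sepp1, the selenium carrier selenoprotein P, at 0.12, then Fam171b at 0.12, Fundc1 at 0.11 and Ifrd1 at 0.10, the 4 genes at or above 0.1. Dnah14, Snap25, Ndufb10, Slc1a3, Papola and Arap2 followed at 0.09 to 0.10, and the lowest were Qk (-0.11), Slc22a17, Pet100, Krcc1 and Mapt. With 0.157 Sgk1 UMIs per control cell these values are no finding.

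In foot shock (830 cells, 2380 genes) 54 genes were at or above 0.1. Ptgds, prostaglandin D synthase, led at 0.24 and was the 1 gene above 0.2, while its own level was 3426 CPM for control and 3370 CPM for foot shock. Within clusters its value was 0.27 (n = 421), 0.17 (n = 336) and 0.31 (n = 73), positive in the cluster that Ptgds leads and in the others. Glul, glutamine synthetase (0.20), Slc38a2, an amino acid transporter (0.19), mt-Atp6 (0.19), Tnni1 (0.18), mt-Cytb (0.18), Arpc1a, a subunit of the actin-branching Arp complex (0.17), mt-Co1 (0.15), mt-Nd2 (0.15) and Tma16 (0.14) followed. Among the lowest were S100b, a calcium-binding protein (-0.20), Cpox, an enzyme of heme synthesis (-0.18), Sepp1 (-0.17) and Marcksl1 (-0.17). Of the 13 mitochondrially encoded genes 6 were at or above 0.1, and the Sgk1 level correlated with the mitochondrial share of a cell at 0.16 in foot shock and 0.01 in control. The part of RNA quality in these values was not tested.

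Sepp1 was the highest gene of control and among the 5 lowest of foot shock. List members were close to 0 in foot shock: the 9 ranked glucocorticoid-induced genes had a median of 0.03 and a highest value of 0.14, and Ddit4 was at 0.02. Of the 10 genes with the highest foot shock over control ratios, Tma16 alone, beside Sgk1, was also among the 10 most correlated.

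**Figure D5:**
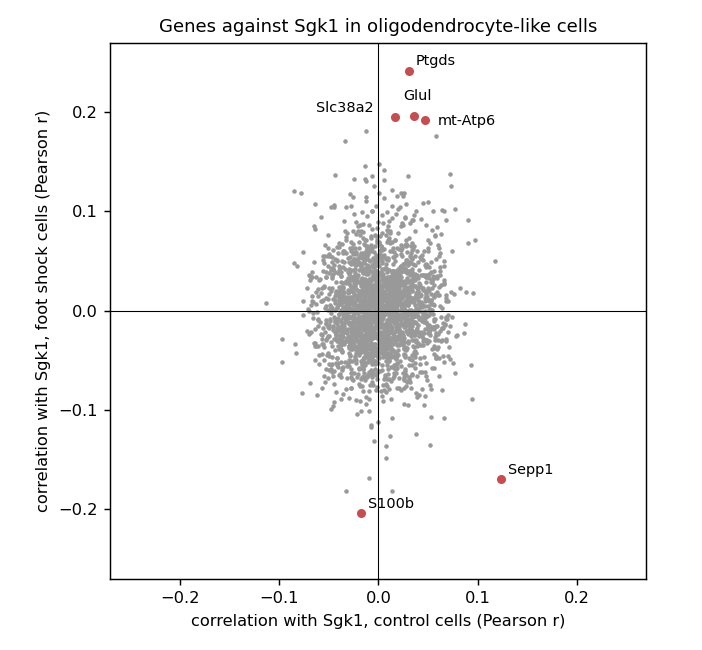
Pearson correlation with Sgk1 over control cells (horizontal axis) and over foot shock cells (vertical axis) for 2304 genes found in at least 10% of oligodendrocyte-like cells of both libraries; red points are named genes. The cloud is wider along the foot shock axis, Ptgds is highest at 0.24, and Sepp1 changes sign.

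Across 22 class and library sums, each of at least 50 cells, the genes most like Sgk1 by Pearson correlation of log2(CPM + 10) were Smad7, an inhibitor of TGF-beta signalling (0.89), Frmd8 (0.83), Rhog, a small GTPase (0.82), Arpc1a (0.81) and Zdhhc9, a palmitoyl transferase (0.78), against a median of -0.07 over 8771 genes. The sums share libraries. Smad7 stood at 24.3 CPM in control precursor-like cells, 398 CPM in committed precursor-like cells and 345 CPM in oligodendrocyte-like cells, and at 42.3, 332 and 410 CPM in foot shock. It thus shared the step at the committed stage with Sgk1 and kept a similar level in mature cells of both libraries, where Sgk1 was 18.3 times apart.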

How the data were processed

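The authors deposited unnormalized UMI counts for every gene and barcode, made with Cell Ranger 2 and mm10 per the submitters' processing notes. No annotation version was found in them; 28339 of 28692 gene identifiers are in GENCODE vM21, the source of positions here. Each matrix lists 737280 barcodes, so cells were called here: at least 1000 UMIs, 500 to 6000 genes and at most 20% mitochondrial UMIs, which left out 63 control and 188 foot shock barcodes over that limit. Scrublet in scanpy 1.11.5 (expected rate 0.08) removed 249 control cells (4.85%) and 69 foot shock cells (1.43%). Both libraries were clustered together (2000 variable genes, 30 components, 15 neighbours, Leiden resolution 1.0) without Sgk1, the gene lists, mitochondrial, ribosomal or hemoglobin genes. Naming a cluster took at least 3 markers, each present in 10% of the cells and reaching 33.3% of its level in the highest cluster; for LHb-like neurons, which had to be neurons with at least 3 LHb markers found, the second limit was not applied; habenula names also needed Pou4f1 at 1 count per 10000, which was set with the data in view. Clusters led by markers of another class were left out.

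Counts were summed per class and library. Levels carry exact Poisson, ratios exact conditional binomial and shares Clopper-Pearson 95% intervals, and a count of 0 was bounded by 3 counts. A gene counted as higher or lower at a ratio of 1.5, or 1/1.5, with an interval leaving out 1. There are no replicates, so no test between groups was made. Correlations used analytic Pearson residuals (overdispersion 100). The computations were tested on simulated data. Alternatives covered depth, mitochondrial and doublet filters, clustering, TMM scaling (edgeR 4.0.16), free RNA subtraction, thinning and correlation measures; leaving out barcodes shared by the libraries, a free RNA share from Mbp and Mobp, and a split of LHb-like clusters were added after seeing the data.

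Sgk1 and all lists were chosen with earlier results of these data known. Named genes were Sgk1, the members of each list at the extremes of ratio with up to 6 of known role per list, the 10 highest and 5 lowest correlated genes per library, the 5 most alike across classes, and the 10 highest and 5 lowest ratios among genes with at least 100 UMIs. Results that need certain genes are not reported here.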

Additional observations from a re-analysis of the deposited data

Results flagged for a closer look

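Sgk1 was also above its control level in barcodes that entered no comparison. Barcodes with 101 to 999 UMIs, too shallow to be called cells, held Sgk1 at 231 CPM in foot shock (214 to 250, 6727 barcodes) and 28.7 CPM in control (21.9 to 36.9, 6191 barcodes). Cells called doublets stood at 379 CPM in foot shock (321 to 445, n = 69) and 32.7 CPM in control (23.5 to 44.4, n = 249). A cluster left out because it carried both oligodendrocyte and astrocyte genes, led by Fgfr3 and Slc6a11, stood at 1241 CPM in foot shock (985 to 1542, 81 UMIs in 22 cells) against 1 UMI in 5 control cells.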

How the results depend on the processing

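The oligodendrocyte-like ratio stayed between 18.1 and 19.5 over 11 alternatives; the ranges were 1.19 to 1.57 in precursor-like cells (9 alternatives) and 0.878 to 1.26 in committed precursor-like cells, where 0.878 came from subtracting a free RNA share that exceeded 100% in foot shock. With cells of at least 2000 UMIs the oligodendrocyte-like level was 58.4 and 1139 CPM (control and foot shock), and the thinned share 5.53% and 63.7%; that depth left fewer than 50 precursor-like, committed precursor-like or microglia-like cells in a library, so no ratio was given. Weighting cells equally gave 1384 CPM in foot shock. Thinning to 2000 UMIs gave shares of 10.2% and 81.8%, and no thinning 13.4% and 86.3%. Thinned to 1000 UMIs, cells without a UMI were 92.97% and 30.5%, and variance over mean was 1.29 in foot shock. Genes with a correlation of at least 0.1 numbered 4 in control and 54 in foot shock. With log1p values they numbered 2 and 31, and among genes in at least 5% of cells 13 in control. The largest cluster (522 and 421 cells) gave 43 and 112, and cells of at least 2000 UMIs 46 and 135. These 2 sets hold fewer cells, and correlations over fewer cells spread wider by sampling alone. Their counts at a fixed limit of 0.1 therefore cannot be compared with those over all cells. Snap25 turned from 0.10 in control to -0.0018 in the largest cluster and -0.013 in cells of at least 2000 UMIs. Pathway members called higher fell from 2 to 1 with at least 100 UMIs or a ratio of 2, and members called lower from 5 to 1 with a ratio of 2. Nedd4l, with 27 and 35 UMIs and a ratio of 1.82, met neither limit. Of the members called lower, Pik3cb (0.393) alone was at a ratio of 1/2 or less. The LHb-like ratio turned to 0.976 in the clusters with 3 or more LHb markers past both marker limits. No paired analysis was possible because each group is 1 library. With 1 pool per group, mice, dissection and library could not be separated from treatment, and low counts limit the neuron and astrocyte values.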

Other observations

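Sgk1 was also counted in classes too small for a ratio. Fibroblast-like cells held 10 UMIs in 50 foot shock cells (123 CPM) and none in 17 control cells, and 5 of these UMIs lay in 5 foot shock cells of the cluster led by Igf2. Macrophage-like cells held 3 UMIs, all in 1 of 18 foot shock cells, and none in 12 control cells. Ependymal-like cells held 1 UMI in 15 control cells and 3 in 38 foot shock cells (23.4 and 16.3 CPM), and the neurons of the cluster led by Ctxn3 and Pdyn 7 in 84 and 5 in 35 (18.1 and 33.0 CPM).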
